A study of Mus musculus with 6 samples.

Results

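The genes that carry the signal of the pre-B cell receptor and the B cell receptor were compared between B lineage cells of the small intestinal lamina propria (the connective tissue under the gut epithelium) and of the bone marrow. The set was chosen by gene symbol, from the receptor's signalling chains, the kinases next to it and its adaptors. It named 9 genes, and 8 of them, with 1 probe set each, were among the 19938 genes measured: Cd79a, Cd79b, Syk, Blk, Btk, Blnk, Pik3ap1 and Plcg2. Lyn was not analysed here.

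All mice carried the RAG2-GFP reporter on the labelled strain RAG2-GFP/129Sve, were 17 to 25 days old and were kept in an SPF facility. GFP-positive cells were sorted, with 8 to 12 mice behind each experiment, and 3 pools from the lamina propria and 3 from the bone marrow were each hybridised to 1 array. The groups thus shared strain, age range and reporter, and tissue is the only difference that the labels name. Age, number of mice and input RNA (4.5 to 47 ng) are given as ranges only. Their values for each pool are not known. Each value describes a pool of animals, and the sort rested on the reporter, which marks cells that express Rag2 or did so recently. Values are log2 RMA values, a background-corrected and normalised probe set signal, so a difference of 1 is a doubling. In bulk RNA, fewer cells that express a gene and less of its RNA per cell cannot be told apart.

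The receptor of a B lineage cell cannot signal by itself. Its heavy chain, paired with the surrogate light chain in pre-B cells and with a true light chain later, sits in a complex with the products of Cd79a and Cd79b, whose cytoplasmic tails hold the tyrosine motifs that are phosphorylated on receptor engagement. SRC family kinases such as BLK phosphorylate these motifs, SYK docks on them, and the adaptor BLNK then brings BTK and phospholipase C gamma 2 together, while BCAP, the product of Pik3ap1, recruits phosphoinositide 3-kinase. In the bone marrow this cascade drives the expansion and further maturation of cells with a successful heavy chain rearrangement.

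The arrays were not alike, and this touches every result below. Across genes, lamina propria pools 1 and 2 correlated with the bone marrow arrays at 0.766 to 0.828, and pool 3 at 0.954 to 0.966. Pools 1 and 2 had 981 and 913 genes above a value of 8, against 1789 for pool 3 and between 1652 and 1903 for the bone marrow arrays. Of 9 measured B lineage markers, 8 had a lower mean in lamina propria pools, against 32.4% of all genes. The 8 include differences near 0, such as -0.002 for Igll1. In pools 1 and 2, genes with bone marrow values from 7 to 12, the range of these markers, were mostly lower as well. Vpreb1, a surrogate light chain gene, ran from 11.67 to 11.92 in lamina propria pools and from 11.79 to 11.85 in bone marrow pools. Rag2 itself had 5.67, 5.75 and 6.06 in the lamina propria, against 7.76, 8.49 and 8.28 in the bone marrow. For each of the 8 genes the difference is therefore given for all arrays, without pool 3, and in pool 3 alone (without pools 1 and 2).

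The 8 genes did not share 1 pattern. Btk and Pik3ap1 were far below every bone marrow pool in lamina propria pools 1 and 2 and inside the bone marrow range in pool 3. Plcg2 and Syk were below every bone marrow pool in pools 1 and 2 and above every one in pool 3. Cd79a, Blnk and Blk differed from their bone marrow means by -0.57 to 0.45 in the 3 lamina propria pools, and Cd79b was low in pool 2 alone. With all 6 arrays, limma called none of the 8 at an adjusted p under 0.05. It called 0% of all 19938 genes, and its smallest adjusted p was 0.155. At an unadjusted p under 0.05, 2 of the 8 were lower, Btk and Pik3ap1, against 8.15% of all genes, and 0 were higher, against 5.53% of all genes. All 8 overlapped between the tissues, while 22.1% of all genes did not.

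**Figure D1:**
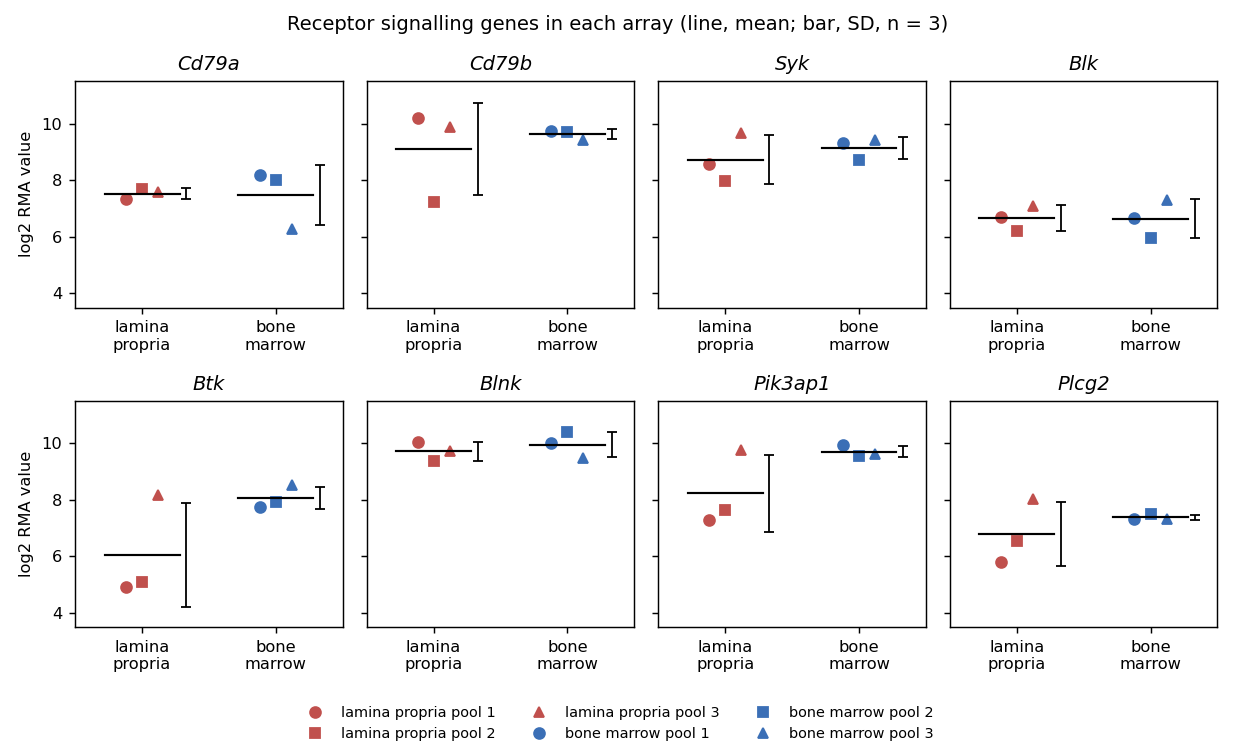
Log2 RMA values (y axis) of the 8 genes in each array, with lamina propria in red and bone marrow in blue and a symbol for each pool number. Black lines are means and bars are SD (n = 3). For Btk, Pik3ap1 and Plcg2, lamina propria pools 1 and 2 lie below all bone marrow pools, and pool 3 lies inside or above their range.

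Cd79a and Cd79b encode the paired signalling chains, Ig-alpha and Ig-beta. Cd79a had 7.32, 7.67 and 7.58 in the lamina propria pools 1 to 3, against 8.17, 8.00 and 6.27 in the bone marrow pools 1 to 3. All lamina propria values lay between the bone marrow extremes, and bone marrow pool 3 was the lowest array of all. The difference was 0.04 (95% interval -1.10 to 1.19, limma adjusted p = 0.956). It was 0.01 without lamina propria pool 3 (limma adjusted p = 0.987) and 0.10 in that pool alone (limma adjusted p = 0.998). Its sign turned without bone marrow pool 3, at -0.56, without lamina propria pool 2, at -0.03, and with array weights, at -0.31.

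Cd79b had 10.18, 7.22 and 9.89 in the lamina propria, against 9.75, 9.69 and 9.43 in the bone marrow. Pools 1 and 3 were above every bone marrow pool and pool 2 was 2.20 below the lowest. The partner chains thus parted in pool 2, where Cd79a was 0.19 above its bone marrow mean and Cd79b differed from its own by -2.40. The difference for Cd79b was -0.52 (95% interval -2.21 to 1.16, limma adjusted p = 0.621). It was -0.92 without pool 3 (limma adjusted p = 0.389), 0.27 in pool 3 alone (limma adjusted p = 0.927) and 0.42 without pool 2. It was 0.13 when all arrays were scaled to the same median and interquartile range.

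Among the kinases, Btk showed the widest gap. BTK is a TEC family kinase that activates phospholipase C gamma 2, and its mutation in mice gives the xid immunodeficiency. Btk had 4.91, 5.09 and 8.17 in the lamina propria, against 7.75, 7.93 and 8.51 in the bone marrow. In pools 1 and 2 the gene stood at percentiles 27.5 and 32.9 of all genes on its array, in pool 3 at 92.2, and in the bone marrow at 89.7 to 93.6. Lamina propria pools averaged 6.06 ± 1.83 and bone marrow pools 8.06 ± 0.40 (SD, n = 3 each). The difference was -2.002 (95% interval -3.91 to -0.09), or 4.01-fold lower, and did not pass over all genes (limma adjusted p = 0.356). Without pool 3, Btk was 8.34-fold lower and passed (difference -3.06, limma adjusted p = 0.006). In pool 3 alone the difference was 0.11 (95% interval -0.80 to 1.02, limma adjusted p = 0.989).

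Syk, the kinase that binds the phosphorylated CD79 tails, had 8.56, 7.96 and 9.66 in the lamina propria, against 9.30, 8.70 and 9.40 in the bone marrow. Pools 1 and 2 lay below all bone marrow pools and pool 3 above them. The difference was -0.41 (95% interval -1.44 to 0.61, limma adjusted p = 0.533), and 0.13 with all arrays scaled to the same median and interquartile range. Without pool 3 it was -0.88 and missed the threshold (limma adjusted p = 0.066), and in pool 3 alone it was 0.52 (limma adjusted p = 0.90).

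Blk, a SRC family kinase largely restricted to B lineage cells, had 6.69, 6.20 and 7.09 in the lamina propria, against 6.67, 5.95 and 7.31 in the bone marrow. The values of the tissues interleaved. The difference was 0.02 (95% interval -0.89 to 0.93, limma adjusted p = 0.974), and its sign turned without pool 3, at -0.20, and without bone marrow pool 2, at -0.33. In pool 3 alone it was 0.45 (limma adjusted p = 0.979). The interval leaves room for close to a doubling or a halving.

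Of the adaptors, Blnk, the scaffold that links SYK to BTK and phospholipase C gamma 2, had 10.04, 9.38 and 9.72 in the lamina propria, against 9.99, 10.38 and 9.48 in the bone marrow. Pools 1 and 3 lay inside the bone marrow range and pool 2 was 0.10 below its lowest array. The difference was -0.23 (95% interval -0.93 to 0.46, limma adjusted p = 0.594). It was -0.24 without pool 3 and -0.23 in pool 3 alone, but 0.64 with all arrays scaled to the same median and interquartile range.

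Pik3ap1, which encodes the phosphoinositide 3-kinase adaptor BCAP, had 7.28, 7.62 and 9.77 in the lamina propria, against 9.92, 9.55 and 9.62 in the bone marrow. Pools 1 and 2 were both at least 1.93 below the lowest bone marrow array, and pool 3 lay within the bone marrow range. Lamina propria pools averaged 8.22 ± 1.35 and bone marrow pools 9.70 ± 0.20 (SD, n = 3 each). The difference was -1.47 (95% interval -2.89 to -0.05, limma adjusted p = 0.356), or 2.77-fold lower. Without pool 3 the gene was 4.74-fold lower and passed (difference -2.24, limma adjusted p = 0.00611), and in pool 3 alone the difference was 0.07 (95% interval -0.50 to 0.65).

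Plcg2 encodes the lipase that splits a membrane phosphoinositide into the messengers inositol trisphosphate and diacylglycerol. It had 5.81, 6.53 and 8.01 in the lamina propria, against 7.31, 7.49 and 7.32 in the bone marrow, where the pools differed least of all 8 genes (SD 0.10, against 1.12 in the lamina propria, n = 3 each). The difference was -0.59 (95% interval -1.78 to 0.61, limma adjusted p = 0.466). Without pool 3, Plcg2 was 2.30-fold lower and passed (difference -1.20, limma adjusted p = 0.0241). In pool 3 alone it was 1.56-fold higher, with an interval above 0 (difference 0.64, 95% interval 0.18 to 1.10), but did not pass over all genes (limma adjusted p = 0.535). That fit assumes that the single lamina propria array varies as the bone marrow arrays do.

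**Figure D2:**
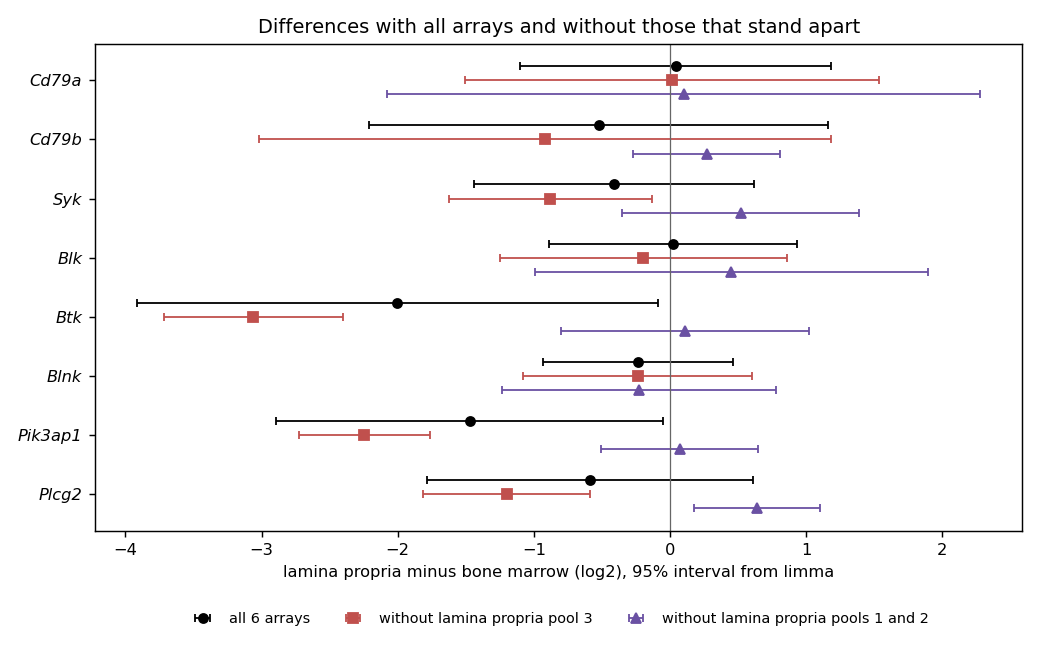
Lamina propria minus bone marrow differences (x axis, log2) with 95% limma intervals for the 8 genes, with all 6 arrays (black), without lamina propria pool 3 (red) and without pools 1 and 2 (purple). The red points of Btk, Pik3ap1 and Plcg2, at -3.06, -2.24 and -1.20, lie apart from the purple ones at 0.11, 0.07 and 0.64.

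Btk, Pik3ap1, Plcg2, Cd79b and Syk, the 5 genes with the most negative differences, also varied most between lamina propria pools. Their SD there ran from 0.86 for Syk to 1.83 for Btk, against 0.10 to 0.40 in the bone marrow. For Cd79a, Blnk and Blk it ran from 0.18 to 0.44, against 0.45 to 1.05 in the bone marrow. The SD was larger in the lamina propria for 5 of the 8 genes and for 81.8% of all genes.

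The distance from the bone marrow also depended on a gene's level, in pools 1 and 2. Genes with a bone marrow mean between 4 and 5 were higher than that mean by a median of 0.52 in pool 1 and 0.54 in pool 2. For those between 5 and 6 the medians were 0.44 and 0.40. Genes with a bone marrow mean between 8 and 9, the range of Btk, were lower than it by a median of 1.38 in pool 1 and 1.55 in pool 2 and by 0.04 in pool 3 (1030 genes). Btk, at -3.15 and -2.97 in pools 1 and 2, was further down, and 10.1% and 16.1% of the genes of its range were lower still. Of the 426 genes between 9 and 10, which had medians of -1.03 and -1.10 in these pools, 21.4% and 31.0% lay below Pik3ap1. For Syk, in the same range, the shares were 60.1% and 48.1%. Cd79b in pool 1, at 0.56, lay above 89.2% of that range. Cd79a, among 1953 genes between 7 and 8, lay above 75.8% in pool 1 and 85.2% in pool 2. Plcg2, also between 7 and 8, lay above 31.9% in pool 1 and 58.6% in pool 2. Against the median of their own range, 3 of the 8 genes were lower in pool 1, 5 in pool 2 and 1 in pool 3. What part the level has in the low values of Btk, Pik3ap1 and Plcg2 was not tested.

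**Figure D3:**
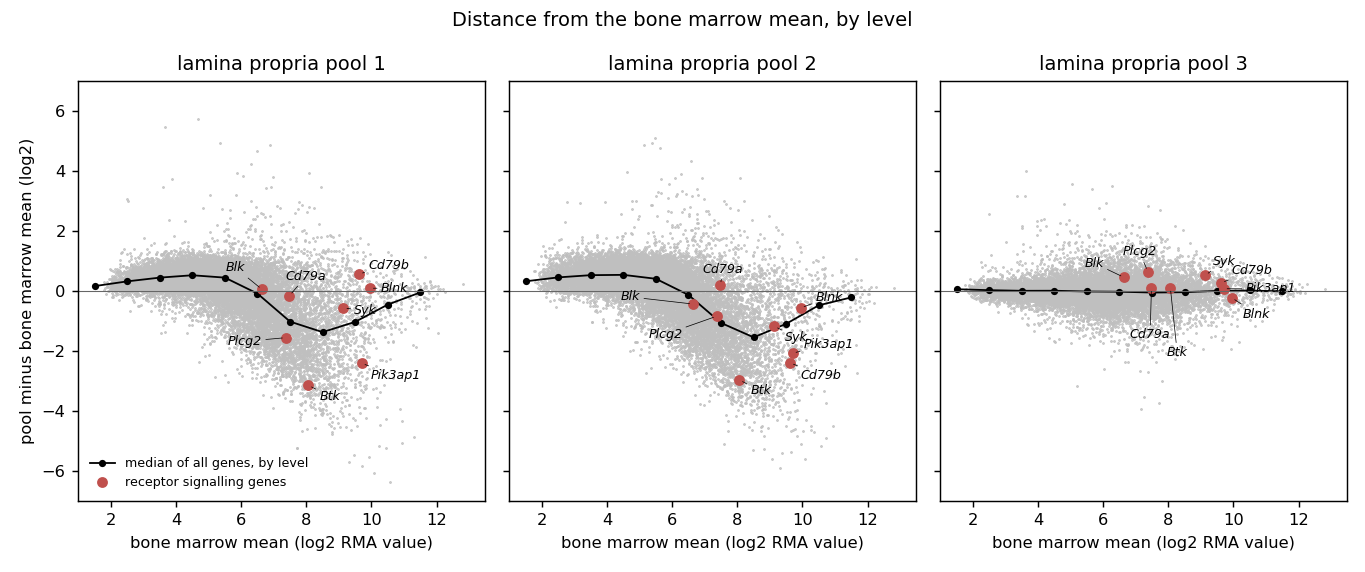
Distance of each lamina propria pool from the bone marrow mean (y axis, log2) against the bone marrow mean (x axis, log2 RMA value), for all genes (grey) and the 8 receptor signalling genes (red). The black line joins the medians of all genes in steps of 1 unit (steps with at least 20 genes). In pools 1 and 2 this line dips to -1.38 and -1.55 between 8 and 9 and Btk lies below it, while in pool 3 it stays near 0.

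As a group, the 8 genes had a median difference of -0.47, against 0.22 for all genes, and 6 of 8 were negative, against 32.4% of all genes. With all arrays scaled to the same median and interquartile range the median was 0.12, against 0.04 for all genes, and 3 of 8 were negative, Btk, Pik3ap1 and Plcg2. In single pools the median distance from the bone marrow mean was -0.37, -1.01 and 0.19 in pools 1, 2 and 3, against 0.31, 0.31 and -0.01 for all genes. In pool 1, 4 of 8 lay below all bone marrow pools (24.1% of all genes) and 1 above (59.7%). In pool 2, 6 lay below (25.2%) and 0 above (58.4%). In pool 3, 0 lay below (26.7%) and 3 above, Syk, Cd79b and Plcg2 (24.8%). Without pool 3, limma called 3 of the 8 lower, Btk, Pik3ap1 and Plcg2 (12.1% of all genes), and 0 higher (24.1%). Without pools 1 and 2 it called 0 of 8 (0% of all genes), and Plcg2 alone had an unadjusted p under 0.05 (3.86% of all genes were higher and 3.29% lower at that level).

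The promoters of 6 of the 9 genes were in the RefSeq table of GRCm38.p6, with 7 start sites in all. The 250 bases before the start site are printed for Cd79a and Blnk, whose values in pools 1 and 2 were -0.57 to 0.19 from the bone marrow mean, and for Btk, whose values there were lowest relative to it. Capitals mark matches, on either strand, to motifs of factor families known to act in B cells: CAGGAAGT (an ETS motif), ATTTGCAT (the octamer) and CAGGTG (an E-box bound by E proteins, CACCTG on the other strand). No matches overlapped. The Btk window precedes the only Btk start site in the table, which lies inside the annotated gene, downstream of its outer end. The motifs were picked after the sequences and values were seen.
Cd79a, chr7:24897247-24897496, plus strand: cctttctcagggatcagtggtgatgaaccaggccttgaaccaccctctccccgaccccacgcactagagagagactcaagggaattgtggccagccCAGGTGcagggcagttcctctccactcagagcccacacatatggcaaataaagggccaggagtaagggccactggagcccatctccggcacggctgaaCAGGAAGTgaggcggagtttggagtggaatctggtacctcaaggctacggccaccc
Blnk, chr19:40994222-40994471, minus strand: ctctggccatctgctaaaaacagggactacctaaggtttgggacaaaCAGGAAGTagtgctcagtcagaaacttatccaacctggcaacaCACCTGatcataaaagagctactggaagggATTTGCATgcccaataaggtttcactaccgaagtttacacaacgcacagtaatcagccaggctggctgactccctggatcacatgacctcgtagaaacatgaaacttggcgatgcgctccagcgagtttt
Btk, chrX:134583141-134583390, minus strand: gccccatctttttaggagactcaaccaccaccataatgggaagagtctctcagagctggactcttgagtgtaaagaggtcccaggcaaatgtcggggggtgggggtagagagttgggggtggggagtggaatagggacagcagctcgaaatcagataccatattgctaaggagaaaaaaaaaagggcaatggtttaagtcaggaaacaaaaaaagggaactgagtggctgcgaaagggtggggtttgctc

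The Cd79a window held the E-box and the ETS motif, the Blnk window these and the octamer, and the Btk window none of the 3. The ETS motif lay in 2 of the 7 windows, those of Cd79a and Blnk, and in 2.69% of 32851 windows of all genes. The octamer lay in 1 window and in 1.6% of all. The E-box lay in 6 of the 7, all but that of Btk, and in 17.2% of all. These letters describe the windows and show neither binding nor its absence.

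Around the receptor, 95 further genes of the pathway were listed, of which 82 were measured. None passed with all 6 arrays by limma, where 6 were higher (7.32%, against 5.53% of all genes) and 10 lower (12.2%, against 8.15%) at an unadjusted p under 0.05. Their median difference was -0.13, against 0.22 for all genes, and 0.00 or -0.04, against 0.04 and 0.12, with the same median and interquartile range or quantile normalization. Without pool 3, limma called 7 higher (8.54%, against 24.1% of all genes) and 16 lower (19.5%, against 12.1%). Without pools 1 and 2 it called 0, with 8 at an unadjusted p under 0.05 (9.76%, against 7.14% of all genes in either direction).

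The list of Ighm (the heavy chain), Igll1, Vpreb1, Vpreb2 and Vpreb3 had a median of -0.06 over 5 genes. It was 1.13 with the same median and interquartile range, but -0.03 with quantile normalization. Ighm differed by -0.33, and by -0.79 without pool 3, where it passed (limma adjusted p = 0.0372). In pool 3 Ighm was 0.58 above its bone marrow mean. Igll1 forms the surrogate light chain with Vpreb1. It had 10.61, 11.21 and 10.26 in the lamina propria, against 11.07, 11.43 and 9.59 in the bone marrow. The difference was 0.00 (95% interval -1.16 to 1.16). Igll1 was at 1.14 with the same median and interquartile range, but at 0.05 with quantile normalization. As with Cd79a, bone marrow pool 3 was its lowest array. Of the co-receptor list, with 3 measured genes and a median of -0.72, Ptprc (CD45, the phosphatase that keeps SRC family kinases ready) had 6.58, 8.26 and 9.60 in the lamina propria, against 9.42, 9.32 and 10.15 in the bone marrow. Its difference was -1.48 (95% interval -3.11 to 0.14), and -2.21 without pool 3, where it passed (limma adjusted p = 0.0335). Cd81, a tetraspanin of the co-receptor, differed by -0.72.

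Of 7 inhibitory receptors 6 were positive, and their median was 0.30, near that of all genes. Cd22, a sialic acid binding inhibitor, had 5.62, 6.03 and 5.60 in the lamina propria, against 5.55, 4.89 and 5.54 in the bone marrow, with no overlap and a difference of 0.43 (limma adjusted p = 0.377). Among genes with a bone marrow mean between 5 and 6, 36.1% lay lower relative to it in pool 1 and 78.6% in pool 2. Cd72 and Siglecg, both also inhibitory, differed by 0.32 and -0.33. Siglecg was at 0.07 with quantile normalization and at -0.02 with the same median and interquartile range. Among 12 phosphatases and negative regulators, with a median of -0.02 (0.04 and 0.13 under the 2 scalings), Dok1, an adaptor that dampens RAS signalling, had 5.45, 5.89 and 5.74 in the lamina propria, against 4.64, 4.998 and 4.77 in the bone marrow. Every lamina propria pool was above every bone marrow pool, pool 3 included, with a difference of 0.89 (95% interval 0.38 to 1.40, limma adjusted p = 0.299). Without pool 3 it was 0.87 and passed (limma adjusted p = 0.0307). In the bone marrow range of Dok1, 4 to 5, 66.5%, 95.1% and 98.8% of genes lay lower relative to it in pools 1, 2 and 3. Inpp5d (SHIP, which removes a phosphate from the product of phosphoinositide 3-kinase) and Ptpn6 (SHP-1) differed by -0.73 and 0.00. Without pool 3 Inpp5d passed at -1.13 (limma adjusted p = 0.0368), but it was at -0.13 with the same median and interquartile range. Among genes with a bone marrow mean between 9 and 10, 40.8% lay lower relative to it in pool 1 and 56.1% in pool 2.

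Of the 8 other SRC, SYK and TEC family kinases, 6 were positive (median 0.36, and -0.07 with the same median and interquartile range). Tec, of the same family as Btk, was low in pools 1 and 2 as well, with 5.64, 4.72 and 7.32 in the lamina propria, against 7.50, 7.39 and 8.38 in the bone marrow. All 3 lamina propria pools were below all bone marrow pools, pool 3 by 0.07, and the difference was -1.86 (95% interval -3.34 to -0.38, limma adjusted p = 0.356). Without pool 3 it was -2.58 and passed (limma adjusted p = 0.0184). Fyn differed by -0.65. Of the 13 other adaptors and exchange factors (median -0.02, and 0.02 with quantile normalization), Grb2, which links receptors to the RAS exchange factor SOS, had 7.74, 8.96 and 7.32 in the lamina propria, against 7.10, 7.003 and 6.98 in the bone marrow. It was higher in every lamina propria pool than in any bone marrow pool, by a mean of 0.98 (95% interval 0.03 to 1.92, limma adjusted p = 0.356). Without pool 3 Grb2 passed, at 1.32 (limma adjusted p = 0.0415). Nck1 differed by -0.38.

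The widest gap among the pathway genes was that of Pik3r1, the regulatory subunit of phosphoinositide 3-kinase. It had 4.41, 4.83 and 8.16 in the lamina propria, against 8.36, 8.57 and 9.41 in the bone marrow, with no overlap and a difference of -2.98 (95% interval -5.14 to -0.82, limma adjusted p = 0.356). Without pool 3 Pik3r1 was 17.9-fold lower and passed (difference -4.16, limma adjusted p = 0.006). The list of phosphoinositide 3-kinase and AKT genes had a median of -0.27 over 10 genes, with Foxo1 at -0.22 and Pdpk1 at -0.33. Under both scalings all 3 of these values were positive. In the calcium and diacylglycerol branch, 11 of 14 genes were negative (median -0.39), and 8 of 14 with the same median and interquartile range. Ppp3cb, a catalytic subunit of calcineurin, had 4.94, 6.11 and 8.89 in the lamina propria, against 9.10, 8.97 and 9.32 in the bone marrow, a difference of -2.48 (95% interval -4.55 to -0.41, limma adjusted p = 0.356). Without pool 3 it was -3.60 and passed (limma adjusted p = 0.00764). Itpr2, a calcium release channel, and Prkcb, a kinase activated by diacylglycerol, differed by -0.40 and -0.50, and by 0.29 and 0.19 with the same median and interquartile range. With quantile normalization both stayed negative, at -0.16 and -0.23.

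Map3k7 (TAK1, a kinase upstream of NF-kB) had 5.98, 5.05 and 7.25 in the lamina propria, against 8.20, 7.52 and 8.25 in the bone marrow. Each lamina propria pool was below each bone marrow pool, and the difference was -1.90 (95% interval -3.14 to -0.65, limma adjusted p = 0.342). Without pool 3 it was -2.47 and passed (limma adjusted p = 0.0165). The RAS and ERK branch had a median of -0.51 over 5 genes, with Braf at -0.96 and Nras at -0.51 with no overlap. Nras was at 0.05 with the same median and interquartile range and at -0.12 with quantile normalization. Without pool 3 both passed, Braf at -1.41 (limma adjusted p = 0.00844) and Nras at -0.72 (limma adjusted p = 0.0288). Among genes in the bone marrow range of Braf, 7 to 8, 38.8% lay lower relative to it in pool 1 and 35.4% in pool 2. In that of Nras, 8 to 9, the shares were 62.4% and 76.0%. Over all 82 genes, 11 were higher and 8 lower without overlap, against 14.8% higher and 7.27% lower of all genes. In pool 3 alone, the distances from the bone marrow mean of the genes without overlap named here were 0.94 for Dok1, 0.30 for Grb2, 0.28 for Cd22, -0.44 for Tec, -0.62 for Pik3r1, -0.24 for Ppp3cb, -0.74 for Map3k7 and -0.11 for Nras.

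**Figure D4:**
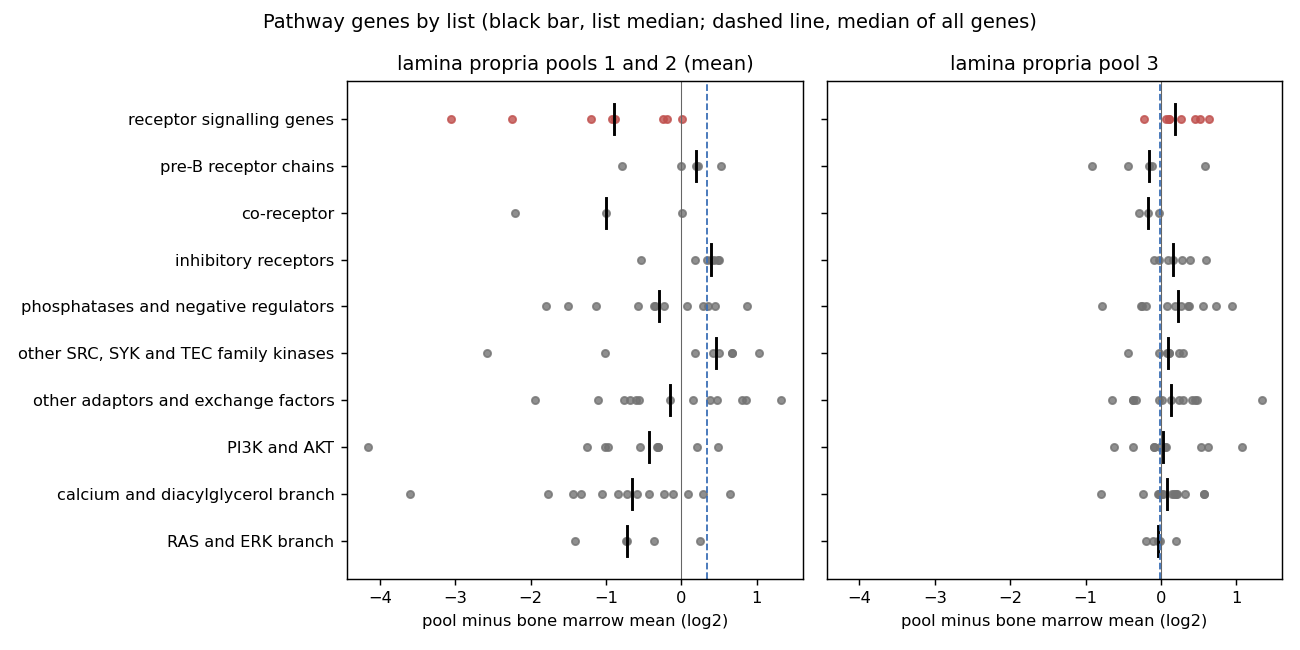
Distance of each gene from the bone marrow mean (x axis, log2) for the pathway lists described, as the mean of lamina propria pools 1 and 2 (left) and in pool 3 (right), with list medians (black bars) and the median of all genes (dashed). The 8 receptor signalling genes (red) have a median of -0.90 on the left and 0.19 on the right.

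Syk, Btk, Plcg2 and Pik3ap1 are also used by myeloid and mast cells, so markers of other cells were read beside them. The summed linear signal of 10 macrophage, monocyte and dendritic cell markers ran from 392 to 681 in the lamina propria and from 457 to 629 in the bone marrow, and 5 of the 10 lay under the array median on all 6 arrays. Itgam, the integrin chain CD11b, ran from 6.08 to 6.93 in lamina propria pools and from 6.87 to 7.68 in bone marrow pools. Lyz2, a lysozyme gene of myeloid cells, had 5.16, 5.29 and 7.88 in the lamina propria, against 6.40, 6.94 and 6.29 in the bone marrow, and so was highest in pool 3. For 8 granulocyte markers the sums ran from 227 to 344 in lamina propria pools and from 285 to 1070 in bone marrow pools, the last from pool 2, where S100a9 reached 9.26. For 6 mast cell markers they ran from 133 to 265 in the lamina propria and from 144 to 179 in the bone marrow. Sums of 7 intestinal epithelium markers did not overlap, at 452 to 569 in lamina propria pools and 322 to 351 in bone marrow pools. The median difference of these 7 genes was 0.46, and 4 of them lay under the array median on all 6 arrays. All genes with a bone marrow mean between 4 and 5 were higher by medians of 0.52, 0.54 and 0.01 in pools 1, 2 and 3. Sums of 8 T cell markers overlapped, at 362 to 437 in the lamina propria and 299 to 364 in the bone marrow. The 9 measured B lineage markers, which include Cd79a and Cd79b, summed to 9320 to 10300 in lamina propria pools and 10700 to 13400 in bone marrow pools. For 5 plasmacytoid dendritic cell markers the sums met without overlapping, at 352 to 399 in the lamina propria and 325 to 352 in the bone marrow. Sums of natural killer cell, plasma cell and erythroid markers, and of 5 markers of stroma and endothelium, overlapped between the tissues. Singly, 3 of 5 plasma cell markers, Jchain, Prdm1 and Tnfrsf17, were higher in the lamina propria without overlap, and 4 of 8 T cell markers were. Of all genes, 14.8% were higher without overlap. The part of these cells in the values of Syk, Btk, Plcg2 and Pik3ap1 was not tested.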

How the data were processed

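RNA of 6 pools of sorted cells was measured, 1 array each. Per the labels' protocols, 4.5 to 47 ng of Trizol RNA were amplified and biotin-labelled. Per the submitters' processing notes, the authors ran RMA (Affymetrix Expression Console, version 1.3.0.187), and the deposited values are on the log2 scale. For the RMA settings and the genome build, no source used here gives details. RMA scales arrays to one another, yet the deposited values differed in spread, with interquartile ranges of 2.00 and 1.94 for lamina propria pools 1 and 2 and 2.41 to 2.47 for the other arrays. Values were used as deposited, with no filter.

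Of 35556 probe sets, 21789 had 1 gene symbol in the platform's table, 1621 several and 12146 were unlisted. Of those with 1 symbol, 21698 matched the RefSeq table of GRCm38.p6, and 0 symbols changed. Where a gene had several probe sets (999 of 19938 genes), that of highest mean stood for it.

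The tissues were compared by lmFit and eBayes of limma 3.58.1 (R 4.3.3, two-sided, no block). P-values were adjusted by Benjamini and Hochberg's method across all genes, with 0.05 as the threshold. The fit was tested on simulated data in which all arrays had the spread of the bone marrow pools. The larger spread of the lamina propria pools was not simulated, so that test does not cover it. The labels call the replicates independent, and p-values measure the spread between pools. The number of arrays limits the precision. The members, lists and rules were chosen with earlier results of these data known. All members were named, and of each pathway list the 2 genes with the highest mean, with the gene of largest difference without overlap. The summary of 1 pathway list is not reported here. Lyz2, Rag2, Ighm, Jchain, Prdm1 and Tnfrsf17 were picked after their values were seen. Alternatives covered a replicate block, scaling, a filter on dim genes, variance models, array weights, probe set rules, a threshold of 0.01 and left-out arrays. Motifs were searched with Python 3.11.15, and figures drawn with matplotlib 3.10.9.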

Additional observations from a re-analysis of the deposited data

How the results depend on the processing

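With all arrays, limma called 0 genes and 0 of the 8 receptor signalling genes, also at 0.01, and results turned on lamina propria pool 3. Leaving out 1 array at a time gave 0 to 7222 genes, 0 to 3 of the 8, and median differences of the 8 from -0.898 to -0.049, with both highest counts and the lowest median found without pool 3. Without pools 1 and 2 the median was 0.19, and Cd79b, Syk, Btk, Plcg2 and Pik3ap1 turned positive, at 0.27, 0.52, 0.11, 0.639 and 0.072. Scaling to the same median and interquartile range, which moved the median of all genes by -0.18, gave a median of 0.12, with Cd79b, Blnk and Syk at 0.13, 0.64 and 0.13. Quantile normalization moved the median of all genes by -0.11 and turned no sign, but gave a median of -0.17 for the 8. Syk was then at -0.006 and Blnk at -0.09, while Btk was at -1.97 and Pik3ap1 at -1.07. Array weights (0.153 for pool 3) called 5586 genes and 3 of the 8 (Btk, Plcg2 and Pik3ap1), with Cd79a at -0.31. The pool number as a replicate block called 16 genes and none of the 8 (smallest limma adjusted p = 0.119). Same-numbered pools correlated in their deviations at 0.131, 0.051 and 0.226 and not every pool correlated best with its own number, so the numbers are not known to pair samples. An intensity trend with robust variances called 40 genes, and every probe set as the unit called 1, neither with any of the 8. Leaving out 1 array moved Cd79a between -0.56 and 0.39, Cd79b between -1.07 and 0.42 and Blk between -0.33 and 0.35. Over 15 alternatives and 8 genes, 100 of 120 differences kept their sign and side of the threshold, 6 newly passed as lower and 14 turned sign. The replicate block, the dim filter, the intensity trend and the probe set rules left the differences of the 8 genes themselves unchanged. No sign could turn under those settings, so the tally overstates how stable the signs were. The causes of the changes were not tested. The signals of 6 arrays, 2 of them unlike the rest, limit all of these.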

Other observations

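The genes whose values followed the mean of the 8 receptor signalling genes most closely over the 6 arrays, among 1143 other genes with a mean of at least 8, were Map3k5, Kdm3b and Ube2j1, at Pearson correlations of 0.998, 0.993 and 0.992. Map3k5 (ASK1, a stress-activated kinase) had 7.49, 7.07 and 8.62 in the lamina propria, against 8.57, 8.40 and 8.26 in the bone marrow. Of these genes, 66 reached a correlation of at least 0.95. The 6 points share the gap between pools 1 and 2 and the other arrays, so the likeness describes that gap.

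Akt1 and Shc1, chosen after their values were seen, stood high in lamina propria pool 3 alone. Akt1, a kinase activated through phosphoinositide 3-kinase, had 6.23, 6.38 and 7.92 in the lamina propria, against 7.09, 6.82 and 6.63 in the bone marrow. Shc1, an adaptor that couples receptors to GRB2, had 4.43, 4.04 and 5.72 in the lamina propria, against 4.53, 4.39 and 4.25 in the bone marrow. Neither passed in pool 3 alone.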
